A study of Mus musculus with 13 samples.

Results

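The clustered protocadherin genes are described here as they appeared in open chromatin of the mouse embryo at E12.5. The members were all genes on chromosome 18 of the GENCODE M21 annotation (mm10 build) whose symbol starts with Pcdha, Pcdhb or Pcdhg. There were 58 members among the 55413 genes annotated on chromosomes 1 to 19, X and Y. They comprised 12 alpha alternate genes, 22 beta genes, 12 gamma A genes, 7 gamma B genes and 5 C-type genes (Pcdhac1, Pcdhac2, Pcdhgc3, Pcdhgc4 and Pcdhgc5). The annotation held 2 members called Pcdha11, told apart below as the first (ENSMUSG00000007440.10) and the second (ENSMUSG00000102206.5). Promoters and open regions were followed over chr18:36830184-37941873, from 100 kb before the first to 100 kb beyond the last member.

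Open chromatin was profiled by ATAC-seq, in which the Tn5 transposase cuts accessible DNA, in 50000 cells per library from the distal part (DFL) and the proximal part (PFL) of the forelimb and from the forebrain (FB). Each tissue was taken from wild-type (wt) embryos and from embryos of the II1TDOM 542 line (542), with 2 libraries per group and 12 in all, and 1 earlier wt DFL library was kept apart. In allele 542 the II1 enhancer of the HoxD locus, with an HBB promoter and LacZ, was recombined into the T-DOM domain on chromosome 2, so the wt and 542 chromosome 18 carried no designed difference. All animals were of the B6CBAF1 strain, untreated, from crosses of heterozygous adults kept in a continuous backcross to C57BL6 × CBA F1 hybrids, and as the study states, the 542 embryos were homozygous. The 542 line was made from 1 founder, wt reads were mapped on mm10 and 542 reads on a genome with the insertion.

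Clustered protocadherins are cell-surface adhesion proteins of the nervous system that bind the same isoform on a neighbouring cell and help neurites of 1 neuron to recognise each other. In the alpha and gamma clusters each variable first exon has its own promoter and is spliced to constant exons shared by the whole cluster, whereas each beta gene is a single exon. Alternate promoters are chosen at random in single neurons, with CTCF, cohesin and distant enhancers taking part, while C-type promoters are used in a more regular way.

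A region is a stretch of open chromatin that the peak caller reported in 1 library, and its fold is the number of tags at its highest point (the summit) over the local background. A promoter was called open in a library when any region lay within 1 kb of a first exon start. For tests, the 50000 strongest regions of each library were listed, and the strength percentile gives the place in that list, from 100 for the strongest region to 0 for a promoter with no region in the list. Libraries held 37.5 to 70.7 M (mega) tags and 85070 to 118297 regions. The FB libraries (51.4 to 70.7 M tags) were deeper than most limb libraries (37.5 to 54.5 M), and 29 to 38 regions per library lay in the protocadherin interval. In the limb every 542 library (37.5 to 41.4 M tags) was shallower than every wt library (44.1 to 54.5 M). The part of depth in the differences by genotype was not tested.

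Tissue labels were checked on marker promoters. Of 6 forebrain markers tested, 5 were stronger in every FB library than in every limb library, as were 5 of 6 neuron markers, and all 3 distal limb markers (Hoxd13, Hoxa13 and Hoxd12) were stronger in every DFL than in every PFL library. Of 5 limb mesenchyme markers only Twist1 was stronger in every limb library, Tbx5 was in no list, and none of 3 proximal limb markers separated DFL from PFL. The neuron markers Elavl3 and Stmn2 had mean percentiles of 76.8 and 84.6 in FB, whereas in limb Elavl3 was in no list and Stmn2 in 1 DFL library. These are bulk samples, in which fewer cells of a type and less opening per cell cannot be told apart.

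Most clustered protocadherin promoters had no open region at this depth. Of the 58 members, 35 had no region in any of the 12 libraries, against 25.2% of the 20656 promoters tested, and 47 were in no list, against 31.0% of promoters. In single libraries 6 to 16 members were called open, while 67.4 to 69.7% of all promoters were. At the other end, 5 members had a region in all 12 libraries, against 62.9% of all promoters, and 4 were in all 12 lists, against 57.7%. These 4 were the C-type genes Pcdhac1, Pcdhac2, Pcdhgc3 and Pcdhgc4, and the fifth with a region throughout was Pcdhga12. A missing region says that no opening was detectable at this depth, not that the promoter was closed in every cell.

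The subgroups differed in how many promoters were called in at least 1 library. Among C-type genes 4 of 5 were called, among gamma A genes 10 of 12, among gamma B genes 5 of 7, among alpha alternate genes 2 of 12 and among beta genes 2 of 22. The members with no region were Pcdha1 to Pcdha9 and the first Pcdha11, 20 beta genes, Pcdhga8, Pcdhga9, Pcdhgb1, Pcdhgb2 and the C-type gene Pcdhgc5. Both beta calls rested on 1 limb library each, with folds of 3.502 at Pcdhb1 in wt DFL replicate 2 and 3.02 at Pcdhb16 in wt PFL replicate 2, each from 19 tags.

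**Figure D1:**
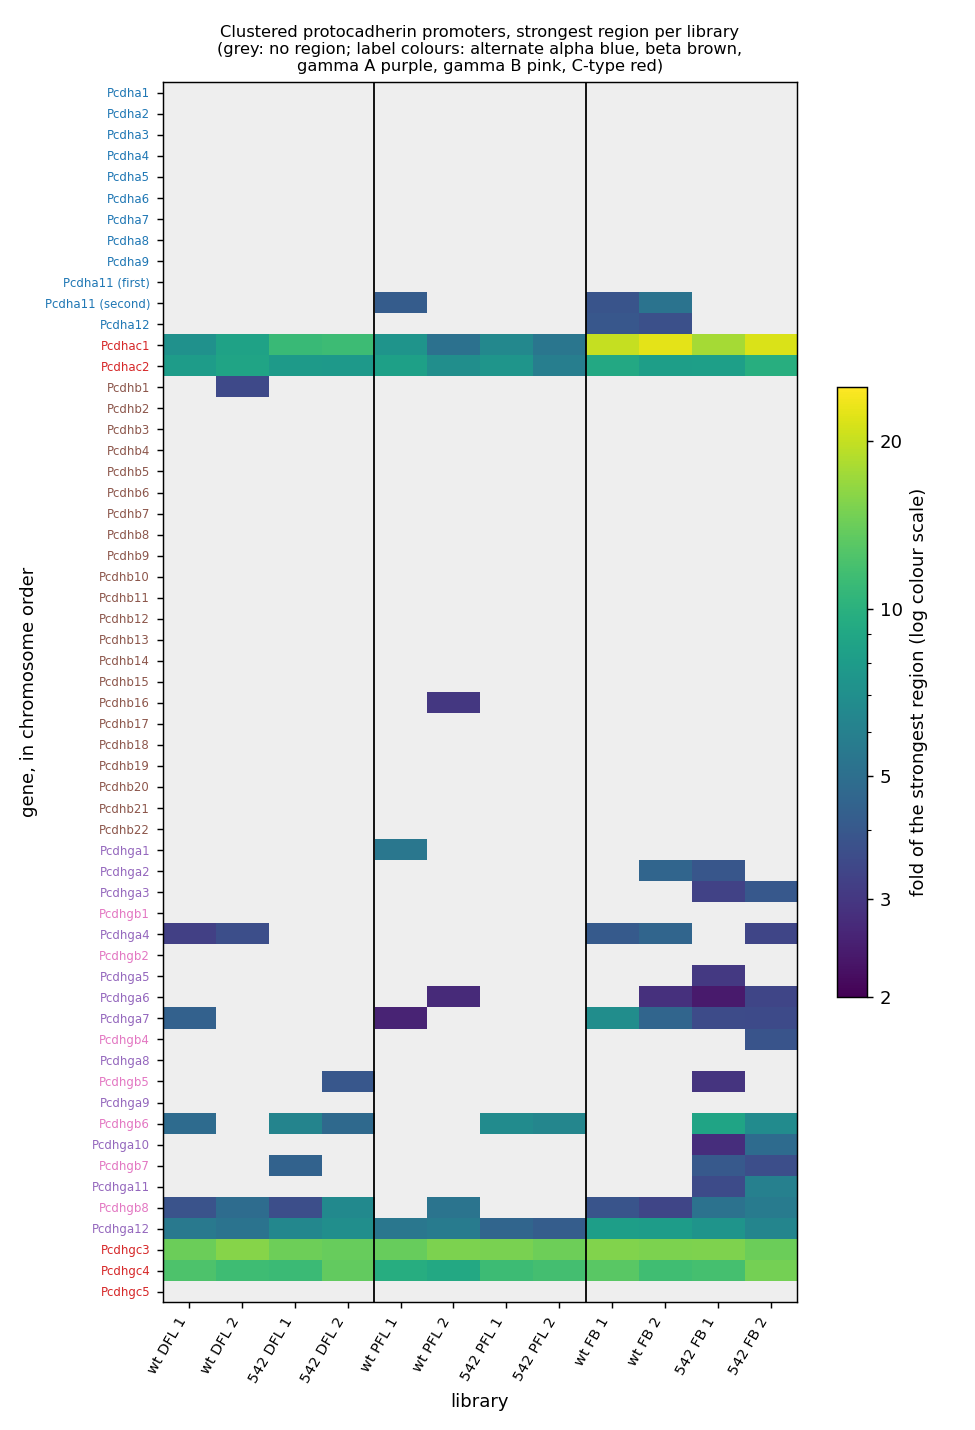
Heat map of the fold of the strongest region (log colour scale) at each of the 58 clustered protocadherin promoters (vertical axis, genes in chromosome order, label colour for the subgroup) in each of the 12 libraries (horizontal axis, grouped by tissue), with grey where no region was called. The C-type genes other than Pcdhgc5 form filled bands across all 12 libraries, and only 2 alpha alternate and 2 beta genes have any filled cell.

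The regions themselves were spread unevenly along the interval. The alpha cluster (chr18:36930184-37187661, 14 genes with its 2 C-type genes) held 14 regions over all 12 libraries, or 5.44 per 100 kb. The beta cluster (chr18:37264938-37524479, 22 genes) held 2, or 0.771 per 100 kb, and the gamma cluster (chr18:37661793-37841873, 22 genes) held 28, or 15.5 per 100 kb. The longest stretch of the interval without any region was 212.6 kb and held the starts of 14 genes from Pcdhb2 to Pcdhb15. A stretch of 180.3 kb held the starts of 10 alpha genes from Pcdha1 to the first Pcdha11, and one of 165.8 kb the starts of the 6 genes from Pcdhb17 to Pcdhb22. The stretch of 180.3 kb began at the edge of the interval, so its full length was not measured.

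Region width and tag number differed among the C-type promoters. Over the 48 calls of the 4 open ones the strongest summit stood on a median of 173 tags (26 to 583) in a median region of 1238 bp. The alternate and beta promoters gave 66 calls in 19 genes, with a median of 29.5 tags (15 to 75) in a median region of 328 bp. Of these 66 summits, 53 lay within 300 bp of the gene's start, the median being 22.5 bp before it (-22.5 bp), and the highest fold was 8.74. Pcdhac1 in limb fell within this range of tags, with regions of 266 to 550 bp on 26 to 59 tags, against 741 to 1146 bp on 211 to 276 tags in FB, whereas Pcdhgc3 and Pcdhgc4 stood on at least 113 tags in every library. Tag counts of this size carry a counting error that the percentiles do not show.

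Pcdhgc3 and Pcdhgc4, C-type variable exons that lie near the gamma constant exons, had the highest mean percentiles of all members over the 12 libraries, in limb and FB libraries both. Pcdhgc3 (ENSMUSG00000102918.1, chr18:37806364-37841873) had percentiles of 92.3 and 93.0 in wt DFL, 92.0 and 92.0 in 542 DFL, 91.3 and 94.3 in wt PFL, 91.6 and 91.8 in 542 PFL, 93.0 and 93.7 in wt FB, and 92.8 and 89.7 in 542 FB. All 12 libraries lay within a narrow range and the tissues overlapped, with a mean of 92.3 ± 1.77 (SD, n = 4) in FB and 92.3 ± 0.975 (SD, n = 8) in limb. The FB minus limb difference was 0.03 (two-sided exact permutation test, p = 0.99). Its folds ran from 13.9 to 15.7, and 5.26 to 8.24 tags per M tags of the library stood under the summit.

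Pcdhgc4 (ENSMUSG00000023036.14, chr18:37815079-37841873) had percentiles of 85.5 and 82.7 in wt DFL, 83.9 and 87.8 in 542 DFL, 79.4 and 79.1 in wt PFL, 80.9 and 84.2 in 542 PFL, 87.2 and 85.9 in wt FB, and 85.2 and 89.3 in 542 FB. The FB values lay at the upper end and overlapped with those of wt and 542 DFL. The mean was 3.97 higher in FB (86.9 ± 1.77, SD, n = 4) than in limb (82.9 ± 3.04, SD, n = 8), which did not pass the adjusted threshold (exact permutation test, p = 0.0404, adjusted p = 0.155). The strongest summit lay a median of 274.5 bp inside the gene, on 4.51 to 6.11 tags per M in FB and 2.81 to 4.23 in limb. Pcdhgc5, the last variable exon, had no region in any of the 13 libraries.

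The C-type promoters of the alpha cluster were stronger in FB. At Pcdhac1 (ENSMUSG00000103255.1, chr18:37090013-37187657) the percentiles were 36.9 and 50.2 in wt DFL, 68.4 and 68.0 in 542 DFL, 41.3 and 8.3 in wt PFL, 33.0 and 24.4 in 542 PFL, 84.7 and 90.2 in wt FB, and 84.0 and 87.1 in 542 FB. Every FB library lay above every limb library, and the limb libraries were widely spread. The mean was 45.2 higher in FB (86.5 ± 2.77, SD, n = 4) than in limb (41.3 ± 20.7, SD, n = 8), with p = 0.00404, the smallest this design allows, and an adjusted p = 0.0312 over all promoters (two-sided exact permutation test, Benjamini-Hochberg). On the fold scale the FB libraries stood at 20.1, 22.6, 17.8 and 21.7 and the limb libraries between 5.13 and 11.3. Under the summit, a median of 53 bp before the start (-53 bp), lay 3.27 to 4.88 tags per M in FB and 0.627 to 1.47 in limb.

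Within the limb the 4 DFL libraries averaged 55.9 ± 15.2 at Pcdhac1 and the 4 PFL libraries 26.8 ± 14.1 (SD). The lowest DFL value, 36.9, lay under the highest PFL value, 41.3, so the groups overlapped, and the difference of 29.1 did not pass (exact permutation test, p = 0.0571, the smallest possible p being 0.0286). The 2 542 DFL libraries were both above the 2 wt DFL libraries, but over the 3 tissues the 542 minus wt difference was 8.89 (exact permutation within tissues, p = 0.213).

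Pcdhac2 (ENSMUSG00000102697.1, chr18:37143503-37187657) had percentiles of 60.5 and 66.8 in wt DFL, 67.1 and 63.7 in 542 DFL, 64.8 and 55.2 in wt PFL, 63.8 and 48.7 in 542 PFL, 76.8 and 76.6 in wt FB, and 73.2 and 75.1 in 542 FB. All 4 FB values lay above all 8 limb values. The mean was 14.1 higher in FB (75.4 ± 1.65, SD, n = 4) than in limb (61.3 ± 6.38, SD, n = 8; exact permutation test, p = 0.00404, adjusted p = 0.0312). On the fold scale the groups overlapped, with 8.28 to 9.70 in FB and 5.87 to 8.72 in limb, so the call was lost there. Per M tags, 2.73 to 3.39 lay under the strongest summit in FB and 1.12 to 1.86 in limb, and that summit stood a median of 407 bp inside the gene.

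**Figure D2:**
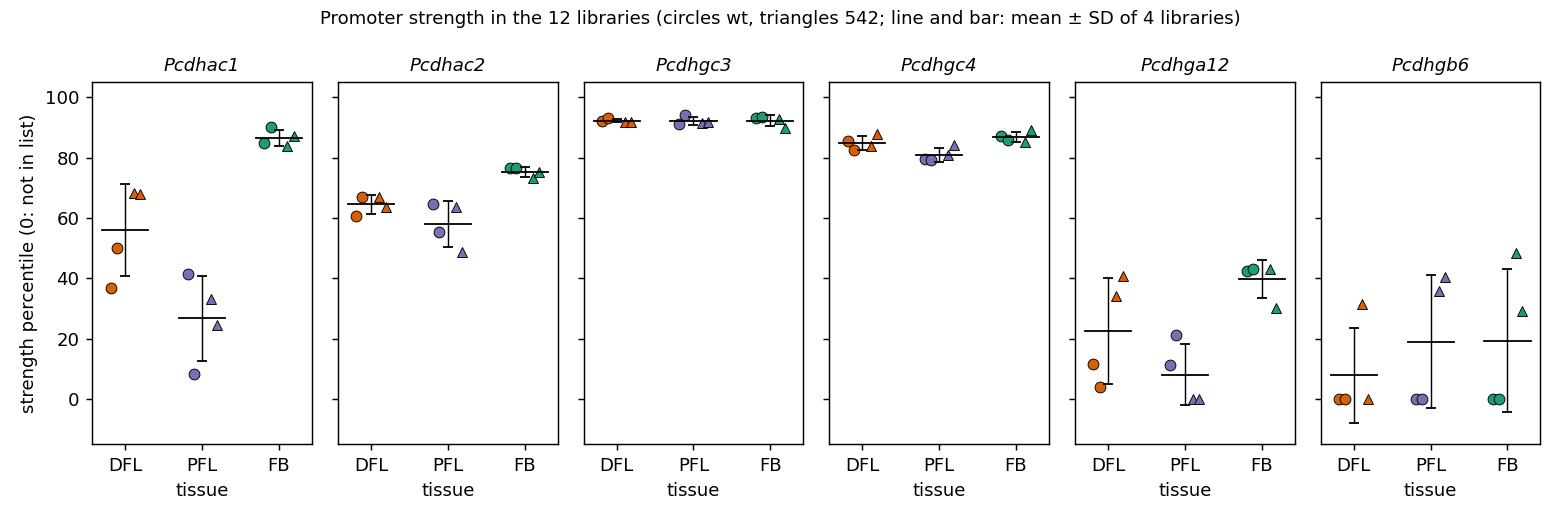
Strength percentile (vertical axis, 0 where the promoter is not in the list) of 6 protocadherin promoters by tissue (horizontal axis), with 1 point per library (circles wt, triangles 542) and a line and bar for the mean ± SD of 4 libraries. The FB points of Pcdhac1 and Pcdhac2 lie above all their limb points, Pcdhgc3 sits near 92.3 throughout, and every wt point of Pcdhgb6 is at 0.

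Of the 58 members, Pcdhac1 and Pcdhac2 were therefore the 2 whose FB libraries all lay above the limb libraries, against 6.02% of all promoters, and 0 lay below in all, against 6.94%. The median FB minus limb difference was 0 over the members and 0 over all promoters. In the same comparison (exact permutation test) 4 of the 58 members had an unadjusted p below 0.05, against 5614 of the 20656 promoters. After adjustment 2 members passed, against 3358 promoters (16.3%). The neuron markers moved the same way: 5 of 6 were above all limb libraries in FB, and their part in the result was not tested.

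Calls at the gamma A promoters were counted over genes and libraries, most of them in weak regions. Over the 12 genes and 4 libraries of each tissue, 23 of 48 gene and library pairs were called in FB, 7 of 48 in DFL and 7 of 48 in PFL. Over all promoters the called share of such pairs was 67.9% in FB, 68.6% in DFL and 68.7% in PFL. Pcdhga2, Pcdhga3, Pcdhga5, Pcdhga10 and Pcdhga11 had regions in FB libraries and in no limb library, as had Pcdha12 and Pcdhgb4 in the other subgroups, whereas Pcdhga1, Pcdhb1 and Pcdhb16 had them in limb and in no FB library. These are 7 and 3 of the 58 members, against 1.26% and 4.48% of all promoters. Gamma B genes gave 10 of 28 pairs in FB, 9 of 28 in DFL and 3 of 28 in PFL. These counts are descriptions with no test, and the FB libraries were also the deeper ones, the part of which was not tested.

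Pcdhga12, the last gamma A exon (ENSMUSG00000102428.1, chr18:37765580-37841873), was the most regularly open alternate gene. It had percentiles of 11.6 and 4.1 in wt DFL, 34.0 and 40.7 in 542 DFL, 11.4 and 21.1 in wt PFL, 0 and 0 in 542 PFL, 42.6 and 43.3 in wt FB, and 43.3 and 30.2 in 542 FB. The 3 highest FB values were above all limb values, and the lowest FB value lay under those of 542 DFL. The FB mean was 24.5 higher (39.8 ± 6.42, SD, n = 4, against 15.4 ± 15.4, n = 8) and did not pass after adjustment (exact permutation test, p = 0.0242, adjusted p = 0.108). Its summit stood 296 to 357 bp inside the gene in every library.

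Other gamma genes were called in some of the libraries. Pcdhga7 was called in 6 libraries, with folds of 6.89, 4.54, 3.55 and 3.54 in FB, 4.39 in wt DFL replicate 1 and 2.57 in wt PFL replicate 1, and it was in 1 list. Pcdhgb8, annotated as a polymorphic pseudogene, was called in 9 libraries, all except wt PFL replicate 1 and both 542 PFL libraries, with folds from 3.40 to 6.61. Pcdhga4 was called in 5 libraries and Pcdhga6 in 4, all outside the lists. Pcdhga11 shared its region with the start of another annotated gene, Gm26672, and the signal of the 2 cannot be told apart. Regions at Pcdhgc3, Pcdhga7, Pcdhga1 and the second Pcdha11 overlapped exons of BC037039, Gm37165, 3222401L13Rik and Gm10545, in that order. The signal there was not divided between genes.

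In the alpha cluster the second Pcdha11 was called at folds of 3.85 and 5.25 in wt FB and 4.18 in wt PFL replicate 1, and Pcdha12 at 3.97 and 3.69 in wt FB. Neither had a region in 542 FB or in any DFL library. The other 10 alpha alternate genes had none.

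Between DFL and PFL no member separated the groups, with 0 of 58 above and 0 below, against 2.18% and 3.01% of all promoters. By the exact permutation test 0 members had an unadjusted p below 0.05, and over all promoters 0 of 20656 passed after adjustment, with 1071 at an unadjusted p below 0.05.

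Between the genotypes 0 of 58 members were above and 0 below in all 3 tissues, against 0.784% and 1.67% of promoters. The nearest was Pcdhgb6 (ENSMUSG00000103088.1, chr18:37742094-37841873), a gamma B alternate exon, with percentiles of 31.5 and 0 in 542 DFL, 35.7 and 40.5 in 542 PFL, 48.4 and 29.2 in 542 FB, and 0 in all 6 wt libraries. It was thus in 5 of 6 542 lists and in none of the wt lists. Among all deposited regions it was called in 6 of 6 542 libraries, at folds of 4.72 to 8.74, and in 1 of 6 wt libraries, wt DFL replicate 1, at 4.83. The 542 minus wt difference was 30.9 (exact permutation within tissues, n = 6 and 6, p = 0.0278, adjusted p = 0.453), which did not pass the adjusted threshold.

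In FB the weak gamma calls were split by genotype. Members called open numbered 10 and 12 in wt FB (70.7 and 56.6 M tags) and 16 and 15 in 542 FB (64.5 and 51.4 M tags). Pcdhga3, Pcdhgb6, Pcdhga10, Pcdhgb7 and Pcdhga11 were called in both 542 FB libraries and in neither wt FB library, which is 8.62% of the members, while the same pattern held for 0.300% of all promoters. The reverse pattern held for the second Pcdha11 and Pcdha12, 3.45% of the members, and for 0.324% of promoters. In the limb it held for Pcdhgb6 in PFL (0.165% of promoters) and, reversed, for Pcdhga4 in DFL (0.634%). The patterns were noticed after the values were seen, carry no test, and rest on folds of 2.79 to 8.74, so 2 libraries per group leave them as descriptions.

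Properties of the promoter sequence were set beside these calls, because a read pair that maps equally well to a paralog was removed by the mapping quality filter. Within 500 bp of the gene start, the median share of 50-base words found once in the mm10 genome was 84.3% in alpha alternate genes (75.3 to 97.9%), 92.3% in gamma B genes, and 100% in beta, gamma A and C-type genes. Among the 58 members 13 fell under 90%, 10 of them alpha alternate genes, against 13.01% of all promoters. Of the 35 members with no region, 17 were fully unique in this window and the median was 99.3%. The beta genes thus lay in sequence where nearly all such words were unique, and the alpha alternate genes lay in sequence where many were not. Of the 19 alternate and beta genes with a region 4 fell under 90% (21.1%), and of the 34 without one 9 (26.5%). The second Pcdha11, called in 3 libraries, had 78.6%. The part of uniqueness in the missing calls was not tested.

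Beta promoters were poorer in CpG. The median ratio of observed to expected CpG within 500 bp was 0.378 in beta genes, 0.588 in gamma A, 0.642 in gamma B, 0.670 in C-type and 0.684 in alpha alternate genes, against 0.558 over all promoters.

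**Figure D3:**
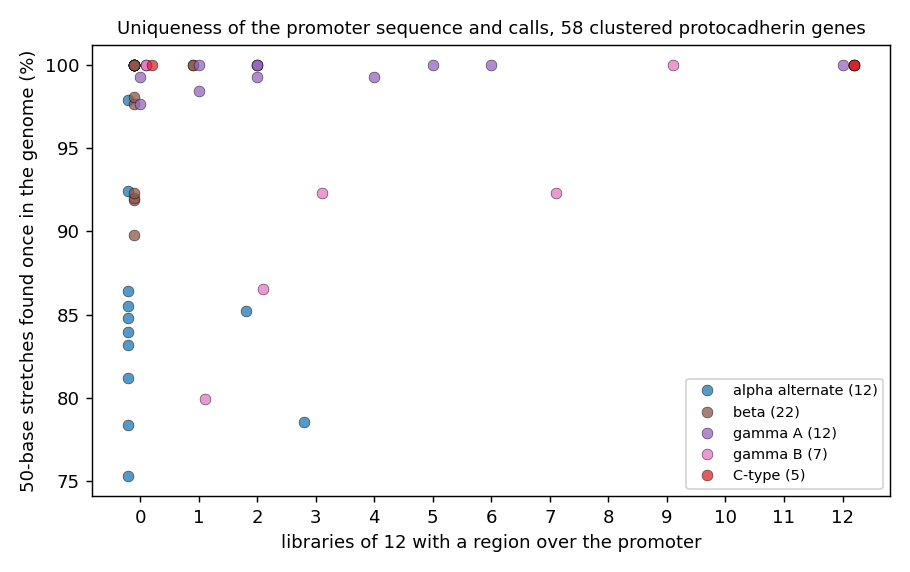
Number of the 12 libraries with a region at the promoter (horizontal axis, points shifted slightly by subgroup) against the share of 50-base stretches within 500 bp of the start that occur once in the genome (vertical axis, percent), with 1 point per gene and colour for the subgroup. Alpha alternate genes lie mostly under 90% and at 0 libraries, while most beta genes lie at 100% and also at 0 libraries.

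Regions outside the member promoters formed most of the open chromatin of the interval. The lists of the 12 libraries held 35 regions, numbered R1 to R35 by position, of which 11 lay at member promoters, 3 at promoters of other protein-coding genes, 6 at other annotated starts and 15 away from any start. Of the 35, 19 were called in all 12 libraries, a description only, since the same share over all regions was not counted. In FB 10 of the 35 lay above all limb libraries, against 13.5% of the 105641 regions tested, and 1 lay below in all, against 7.52%. After adjustment 12 of the 35 passed (exact permutation test), against 22.5% of all regions, with a smallest adjusted p of 0.0193, and over all regions the median FB minus limb difference was -0.93.

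**Figure D4:**
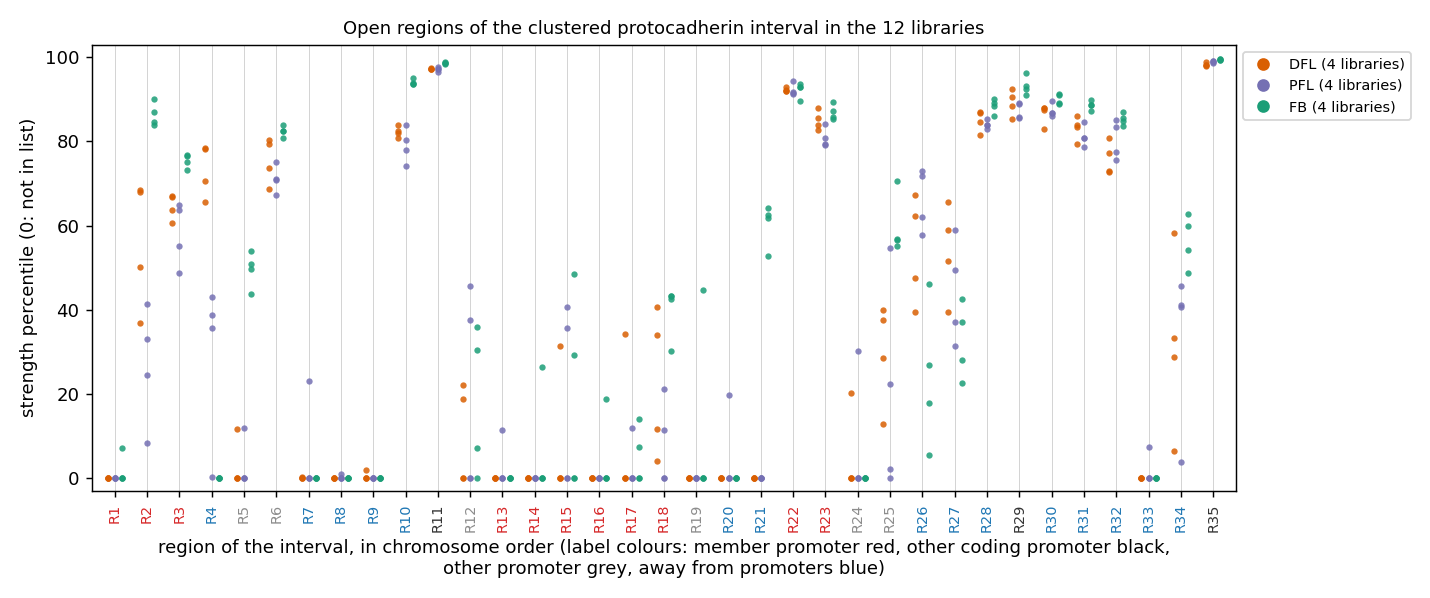
Strength percentile (vertical axis, 0 where the region is not in the list) of the 35 regions in chromosome order (horizontal axis, label colour for the kind of place), with 1 point per library and colour for the tissue. The FB points stand apart above limb at R5 and R21 and at 0 in R4, and all libraries lie high at R11, R22 and R35.

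Around the alpha constant exons, which all 14 alpha and C-type alpha transcripts share, R4 was found in limb libraries alone and R5 was stronger in FB. R6 was open in both, with higher percentiles in FB. R7 lay over the alpha constant exon 3. R8 and R9 lay beyond the coding part of it that all 14 genes share, over annotated exons of the same genes. These regions were also called in limb libraries alone. They were called in 7, 4 and 2 limb libraries, at folds of at most 5.34. R4 (chr18:37158679-37160221) lay over the alpha constant exon 2 (chr18:37159265-37159353), 15.2 kb beyond the start of Pcdhac2. It had percentiles of 70.7 and 65.7 in wt DFL, 78.2 and 78.6 in 542 DFL, 43.1 and 0.2 in wt PFL, 35.7 and 38.9 in 542 PFL, and no region in any FB library. It was the 1 region that lay lower in every FB library (exact permutation test, p = 0.00404, adjusted p = 0.0193), a call lost with lists of the 20000 strongest regions, where the difference was -16.6. It was also the 1 region of the interval, against 5.94% of all regions, that lay above in every DFL library, by 43.8 (73.3 ± 6.20 against 29.5 ± 19.7, SD, n = 4 and 4, exact permutation test, p = 0.0286, adjusted p = 0.255), which did not pass. None lay below in every DFL library, against 5.29%. Its folds were 9.59 to 11.9 in DFL and 4.82 to 7.56 in PFL.

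R5 (chr18:37172209-37172880) lay between the alpha constant exons 2 and 3, at the start of the annotated gene Gm38097. Its percentiles were 54.1, 50.8, 43.6 and 49.8 in the FB libraries, 11.6 in wt DFL replicate 1, 11.8 in wt PFL replicate 2, and 0 in the other 6 limb libraries. Among all deposited regions it was called in 4 limb libraries, at folds of 4.36 to 5.57, against 8.10 to 10.02 in FB. FB lay above limb throughout, by 46.7 (exact permutation test, adjusted p = 0.0193). R6, further on at the start of Gm10544, was open in all 12 libraries, with 80.7 to 84.0 in FB and 67.3 to 80.4 in limb. Every FB value of R6 lay above every limb value, by 9.14 on average (exact permutation test, p = 0.00404, adjusted p = 0.0193). On the fold scale its groups overlapped, with 11.7 to 12.3 in FB and 9.63 to 12.3 in limb.

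The strongest region between the alpha and beta clusters was R10 (chr18:37217087-37218575), 29.4 kb beyond the end of the alpha genes and 46.4 kb before Pcdhb1. Enhancers of the alpha genes are known both between the constant exons and beyond the last of them. Whether R5, R6 or R10 coincides with one was not tested. R10 had percentiles of 80.7 and 82.0 in wt DFL, 83.9 and 82.5 in 542 DFL, 74.1 and 78.1 in wt PFL, 80.3 and 83.8 in 542 PFL, 93.98 and 95.01 in wt FB, and 93.5 and 93.7 in 542 FB. Every FB value lay above every limb value, by 13.4 on average (exact permutation test, p = 0.00404, adjusted p = 0.0193). On the fold scale the direction turned, with 13.4 as the highest value in FB and 13.8 to 17.7 in limb, a difference of -3.09.

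Within R10 the tissues differed in how many summits were called. Near 344 bp from the region's start, 6.23 to 7.16 tags per M lay under a summit in the 4 FB libraries and 0.347 to 0.846 in the 7 limb libraries that had it. Near 869 bp the FB libraries had 5.41 to 6.35 and the 3 limb libraries with a summit 0.363 to 0.523. At the summit that all libraries shared, near 1271 bp, the values were 8.61 to 10.2 in FB and 1.74 to 2.63 in limb. FB thus held more tags at all 3 positions. These positions were chosen after the values were seen and carry no test.

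**Figure D5:**
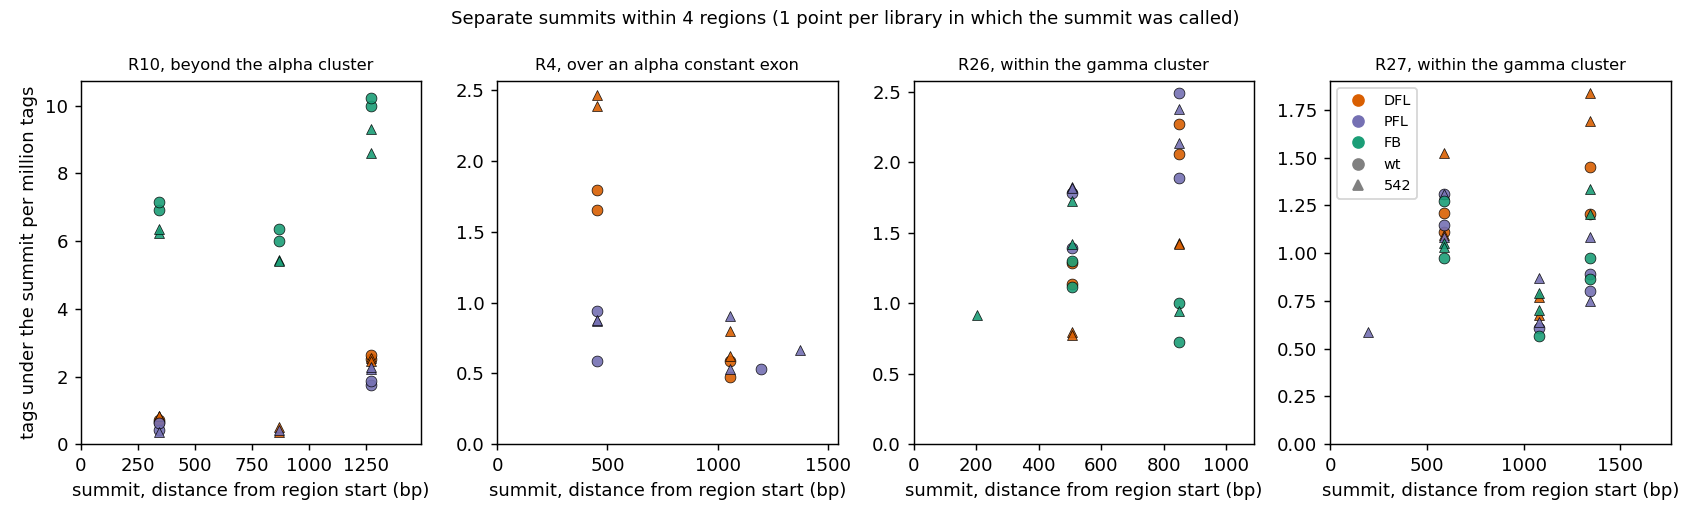
Tags under each separate summit per M tags of the library (vertical axis, a different scale in each of the 4 panels) by distance from the region's start in bp (horizontal axis), with 1 point per library in which the summit was called, colour for the tissue and shape for the genotype (circles wt, triangles 542). In R10 the FB points lie above all limb points at each of 3 positions, and R4 has no FB point.

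In the gamma cluster the 3 regions that differed most between FB and limb lay upstream of the C-type genes and at the constant exons. R21 (chr18:37800784-37801287), 5.08 kb before Pcdhgc3, had percentiles of 52.9, 64.2, 61.8 and 62.5 in FB and 0 in all 8 limb libraries. Among all deposited regions it was called in 3 limb libraries, at folds of 3.02 to 4.18, against 8.77 to 10.4 in FB. The difference of 60.3 passed (exact permutation test, p = 0.00404, adjusted p = 0.0193). With lists of the 20000 strongest regions the call was lost, at a difference of 5.27.

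R25 (chr18:37824821-37825643) lay over the gamma constant exon 1 (chr18:37825021-37825079), with the start of Gm38182 beside it. It had 55.1, 56.8, 70.6 and 56.5 in FB, and in limb the lowest value was 0, the highest 54.7 and the mean 24.8. All FB values lay above limb, the nearest pair being 55.1 and 54.7 (exact permutation test, adjusted p = 0.0193). This call was also lost with lists of 20000, where the difference was 6.60. R26 (chr18:37825865-37826953), the next region, went the other way, with 17.97, 5.5, 46.1 and 26.8 in FB and 39.6 to 73.1 in limb. The groups of R26 overlapped, and its difference of -36.1 passed (exact permutation test, p = 0.00808, adjusted p = 0.0359).

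Single summits of these regions differed by tissue as well, again as a description made after the values were seen. In R26 the summit near 850 bp had folds of 4.62 to 7.03 in the 8 limb libraries and 2.21 to 2.96 in the 3 FB libraries that had it. In R27 (chr18:37835144-37836902), between the gamma constant exons 2 and 3, the summit near 1341 bp had folds of 5.82 to 7.12 in DFL, 3.47 to 4.38 in PFL and 3.53 to 4.85 in FB. At this summit the DFL folds did not overlap with those of PFL or FB, and per M tags DFL (1.203 to 1.84) lay above PFL (0.747 to 1.08) and overlapped with FB (0.866 to 1.33).

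R28 (chr18:37841386-37842977), at the end of the gamma genes, was the 1 region of the 35 that lay above wt in every 542 library of each tissue, against 0.379% of all regions, and 0 lay below, against 0.575%. Its percentiles were 81.6 and 84.6 in wt DFL, 86.8 and 87.1 in 542 DFL, 83.0 and 83.9 in wt PFL, 83.9 and 85.4 in 542 PFL, 88.5 and 86.0 in wt FB, and 89.2 and 90.1 in 542 FB. The highest wt and lowest 542 value of PFL nearly met. The difference was 2.502 (exact permutation within tissues, p = 0.00926, the smallest possible, adjusted p = 0.884), so it did not pass, and the call was lost on the fold scale and with all deposited regions, where the difference was 0.226.

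Some weaker regions, outside the lists or near their end, were also divided by tissue, named here after their values were seen. A region at chr18:37190238-37190578, just beyond the alpha genes, was called in all 4 FB libraries at folds of 2.79 to 4.26 and in no limb library. One at chr18:37185363-37185868, which took in R8, lay beyond the coding part of the alpha constant exon 3 that all 14 genes share. It was called in all 4 PFL libraries at 2.73 to 4.95 and in no DFL or FB library. Of the lists, only that of 542 PFL replicate 1 held it, at a percentile of 1.08. Over all deposited regions of the 12 libraries the interval held 57, of which 19 were called in all 12, again without a share over the genome.

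The other protein-coding genes of the interval were in the lists of all 12 libraries or of none. Taf7, a subunit of the general transcription machinery lying between the beta and gamma clusters, had percentiles of 96.5 to 97.7 in limb and 98.5 to 98.9 in FB. Diaph1, an actin regulator beyond the gamma cluster, had 98.0 to 99.1 in limb and 99.4 to 99.6 in FB. Within Diaph1, R29 at an inner start had 85.3 to 92.4 in limb and 90.9 to 96.1 in FB, and R30, away from any start, had 82.9 to 89.6 and 88.9 to 91.4, both with overlap. R31, also within Diaph1 and away from any start, had 78.6 to 86.0 in limb and 87.1 to 89.9 in FB, without overlap. Its difference of 6.40 passed (exact permutation test, p = 0.00404, adjusted p = 0.0193). Slc25a2, also between the beta and gamma clusters, and the long annotated genes Gm42416, Gm37013 and Gm37388, which run through the clusters, were in 0 lists. Hdac3, whose start lies outside the interval, was in all 12.

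Related genes elsewhere in the genome were mostly open, and their counts stand against 57.7% of all promoters in all 12 lists, 6.02% above limb in every FB library and 6.94% below. Of 12 non-clustered protocadherins 10 were in all 12 lists, 3 were above limb in every FB library and 0 below: Pcdh15 by 47.6, Pcdh1 by 38.2 and Pcdh9 by 1.42. Of 16 classical and type II cadherins tested, 11 were in all 12 lists, 6 were higher in FB and 2 lower, Cdh8 by -13.3 and Cdh11 by -10.5. All 12 tested factors known to act on the clusters, among them Ctcf and the cohesin genes, were in all 12 lists, and 3 were higher in FB: Nipbl by 4.08, Rad21 by 1.80 and Wiz by 4.70. Of 3 partners of the cytoplasmic domains Fyn was higher, by 0.70, and Ptk2b was in no list.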

How the data were processed

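The deposited files were peak lists in narrowPeak form, 1 per library. The authors trimmed adapters with cutadapt, mapped read pairs with Bowtie, removed pairs with a mapping quality under 30, mitochondrial reads and duplicates, and called peaks in each library alone, without a control, with MACS2, extending each tag to 200 bp. The deposited value columns are a fold (a ratio) over the local background, a p-value and a q-value as −log10, and a whole-number score that was not used; replicates were not pooled and no scaling was made between libraries.

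Here a region was represented by its strongest summit, ranked by q-value and then fold, and equal lists of the 50000 strongest regions per library were compared. Because 542 reads were mapped on a changed chromosome 2, that chromosome was left out from 75 Mb on, and with it the markers Pax6, Meis2 and Snap25. Tags under a summit were recovered from fold and p-value within a tolerance of 0.001, and give library depths of 37.5 to 70.7 M (mega) tags. Differences of mean percentile were tested gene by gene or region by region with two-sided exact permutation tests over libraries, adjusted by Benjamini-Hochberg over all 20656 promoters or 105641 regions. FB against limb allowed 495 assignments (smallest p 0.00404), DFL against PFL 70 (0.0286) and genotype within tissues 216 (0.00926). A call meant no overlap between groups, for genotype in the same direction in each of 3 tissues. The comparisons shared libraries. The study describes its limb duplicates as separate pools of several embryos from different litters. This is not stated for FB. Each p-value gives the place of the observed difference among the assignments of these libraries, and so refers to libraries.

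Members, gene lists and tests were chosen with earlier results of these data known. Named were the 3 strongest promoters per subgroup with any list entry, all C-type genes, members with no overlap, the 5 regions of highest mean fold away from member promoters, and up to 3 regions per direction in each comparison; others are named after their values were seen. Alternatives were all deposited regions, lists of 20000, the fold scale, summits in windows of 500 bp, 1 genotype or tissue, a replicate block, the earlier wt DFL library included and each library left out; the fold of all deposited regions was added after seeing the data. The test was checked on simulated data. Python 3.11.15, numpy 2.4.6, pandas 2.3.3, scipy 1.17.1, numba 0.67.0 and matplotlib 3.10.9 were used.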

Additional observations from a re-analysis of the deposited data

Results flagged for a closer look

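Pcdhga12 moved in opposite directions with genotype in the limb. Both 542 DFL libraries lay above both wt DFL libraries, by 29.5 percentile points on average, and both 542 PFL libraries lay below both wt PFL libraries, by -16.2. The difference between the tissues was not tested.

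R10, beyond the alpha cluster, had a 542 minus wt difference of 1.88 in DFL and 5.99 in PFL, with all limb libraries of 542 above those of wt within each tissue, and of -0.90 in FB, with both below. The difference was not tested. R11, the Taf7 promoter, had a DFL minus PFL difference of -0.295 in wt and 0.557 in 542, also not tested.

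The earlier wt DFL library, which was left out of the reported comparisons, had 37 regions in the interval, of which 35 overlapped those of the other libraries. It had a region at Pcdhgb7 with a fold of 2.999, where neither wt DFL replicate had one. Regions at chr18:37091939-37092189 (fold 3.53) and chr18:37932968-37933417 (fold 2.60) were found in this library alone of the 13. Groups of 2 libraries allowed no check for single outlying libraries.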

How the results depend on the processing

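Counts give members or regions whose groups did not overlap, in either direction. For promoters in FB against limb (2 reported) the count was 1 on the fold scale, also with all deposited regions, and 4 in wt alone, and 2 to 3 with each library left out. Pcdhac1 was called under all 24 alternatives. For promoters in DFL against PFL (0 reported) it was 1 with all deposited regions, 1 in wt alone and 4 in 542 alone, and 0 to 1 with a library left out (1 without wt DFL replicate 1, either wt PFL library or 542 PFL replicate 2). For promoters by genotype (0 reported) it was 1 (lower in 542) with all deposited regions, 3 in DFL alone, 3 in PFL alone and 4 in FB alone, and 0 to 1 with a library left out (1 without 542 DFL replicate 2 or wt PFL replicate 1). For regions in FB against limb (11 reported) it was 17 in wt alone, and 11 to 12 with a library left out. With lists of 20000 it was 7, all higher in FB. The lower call of R4 and the higher calls of R21 and R25 were lost there, and R5 was in none of those lists. For regions in DFL against PFL (1 reported) it was 4 with all deposited regions, 2 on the fold scale, 3 with the fold of all deposited regions, 7 in wt alone, 14 in 542 alone and 2 with summits in 500 bp windows. It was 1 to 3 with a library left out (2 without any 1 of the wt limb libraries, 3 without 542 PFL replicate 2). For regions by genotype (1 reported, R28, higher in 542) it was 2 with all deposited regions, both lower in 542 and without R28, 0 on either fold scale, 16 in DFL alone, 8 in PFL alone and 10 in FB alone. It was 1 to 2 with a library left out (2 without 542 DFL replicate 2, either wt PFL library, 542 PFL replicate 1, wt FB replicate 1 or 542 FB replicate 2). In these subsets fewer libraries are compared, so fewer need to be apart.

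Directions turned for R10 in FB against limb on the fold scale (-3.09, with the list or all deposited regions) and with summits in 500 bp windows (-7.51), and by genotype in FB alone (-0.90), for Pcdhga12 by genotype in PFL alone (-16.2), and for R11 (-0.295) and R30 (0.935) in DFL against PFL in wt alone. The cause was not tested. Deviations of same-numbered libraries correlated between -0.068 and 0.041 over 15 pairs of groups, so no pairing by replicate number was seen. These correlations cannot tell whether same-numbered libraries came from the same embryos. With the replicate number as a block the counts were 2, 0 and 0 for promoters and 12, 1 and 2 for regions, in the order above, the last against 1 without the block. With the earlier wt DFL library included all 6 counts were as reported. The summits of the alternate and beta promoters stood on 15 to 75 tags.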
